A study of Mus musculus with 10 samples.

Results

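The 9 genes described here encode S100 proteins: S100a8 and S100a9, whose products form calprotectin, and S100a7a, S100a10, S100a11, S100a6, S100a14, S100a16 and S100a3. They are the rows of the deposited FPKM table whose Ensembl identifiers carry these symbols, 9 of 37991 identifiers, and all 9 passed the filter on low values. FPKM is fragments of a transcript scaled to its length in kilobases and to the mapped fragments of the library, so levels of different genes can be set side by side per length. S100 proteins are small calcium-binding proteins of the EF-hand type that work mostly as dimers. In the epidermis calprotectin is an alarmin and antimicrobial complex that withholds zinc and manganese from microbes, and it is known as a product of inflamed keratinocytes, as in psoriasis. IL-17A acts on keratinocytes through the IL-17RA and IL-17RC receptor and the adaptor ACT1, and is known to raise antimicrobial genes through NF-kB, IkappaB-zeta and C/EBP factors.

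The RNA came from primary cultures of keratinocytes, the cells that make up most of the epidermis, taken from the skin of pups at postnatal days 4 to 5. All pups carried the allele Bcl10tm1Mak: knockout pups (Bcl10-/-) had no normal copy of Bcl10 and heterozygous pups (Bcl10+/-) had 1, so the control cells are mutant carriers too. BCL10 is an adaptor that joins CARD-family proteins to the protease MALT1 in NF-kB signalling. Cells grew on collagen in serum-free medium with 0.05 mM calcium chloride and received recombinant mouse IL-17A at 200 ng/mL for 5 h, or none. Each genotype had IL-17A and unstimulated libraries, 2 and 2 labelled knockout and 3 and 3 labelled heterozygous. The IL-17A and unstimulated libraries that share a genotype and a replicate number are treated as 1 culture, 5 in all. Whether a culture is an animal, a litter or a well is not given, so p-values reflect only how these libraries vary, part of which may be technical.

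Several libraries stand apart or go against their label. Bcl10 itself was 16.4 FPKM with IL-17A and 0.969 unstimulated in knockout culture 1, and 16.6 and 17.0 FPKM in knockout culture 2. In the culture labelled heterozygous 1 it was 16.3 and 18.0 FPKM, close to the knockout libraries other than the unstimulated one of culture 1, against 59.5 to 72.3 FPKM in heterozygous cultures 2 and 3. Which stretch of the gene the allele lacks is not stated, so some Bcl10 signal may remain in true knockout cells. The library numbers in the labels run from 1 to 14 for both knockout cultures and the culture labelled heterozygous 1, and from 33 to 38 for the 2 other heterozygous cultures. Bcl10 separated by this number set too, at 0.969 to 18.0 FPKM in 1 to 14 and 59.5 to 72.3 FPKM in 33 to 38. Because Bcl10 in the culture labelled heterozygous 1 was close to most knockout libraries, results are also given without that culture. This holds for the differences in response and between genotypes of the genes described below. Only heterozygous cultures 2 and 3 are then set against knockout, so genotype cannot be told apart from the number set in those values. The unstimulated library of knockout culture 1 held 12.6% of its FPKM in 10 genes, against 8.21% to 8.66% in the other 9 libraries, led by Gm23935 at 11549 FPKM. The basal keratin Krt5 was 4430 to 6426 FPKM in all 10 libraries. The 6 neutrophil markers, genes of the cell best known for calprotectin, were listed at 0 in every library, as were 3 general leukocyte, T cell and Langerhans cell markers. Of 5 monocyte and macrophage markers, 3 were listed at 0 in every library, and their sum was 2.12 to 2.89 FPKM, nearly all from Cd14. Fibroblast markers summed to 18.7 and 18.8 FPKM in knockout culture 2, against 0.0772 to 0.454 FPKM elsewhere. Melanocyte markers summed to 144 to 168 FPKM in the libraries numbered 1 to 14 and to 263 to 319 FPKM in those numbered 33 to 38. Depth, estimated from the steps of low values, was 15.96 to 50.84 M fragments. At that depth a 1 kb transcript with 3 fragments has 0.0590 to 0.188 FPKM, which covers counting error only. A 0 in this kind of table can be a failed estimate: the glycolytic enzyme gene Gapdh was listed at 0.278 to 4.58 FPKM.

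All 9 genes lie on chromosome 3 (GRCm38, GENCODE M21 gene models), as does Bcl10 at 145922804 to 145934356, plus strand, 52.4 to 55.4 Mb away from them. They form 2 blocks: 7 genes within 168.9 kb, then S100a11 and S100a10 within 44.2 kb, 2.83 Mb further on. The calprotectin genes are neighbours on opposite strands. S100a8 (ENSMUSG00000056054) spans 90668978 to 90670035 on the plus strand and S100a9 (ENSMUSG00000056071) spans 90692632 to 90695721 on the minus strand, with their ends facing each other 22.6 kb apart. Because these are the genes whose RNA rose with IL-17A below, the 250 bases before their RefSeq starts (GRCm38.p6) are shown. Capitals mark a TATA box (TATAAA) in S100a8, chr3:90668821-90669070 plus strand, and a C/EBP motif (TTGCNNAA) in S100a9, chr3:90695722-90695971 minus strand. The RefSeq start of S100a8 lies downstream of the start of its GENCODE model, so the end of that window overlaps the GENCODE model.
S100a8: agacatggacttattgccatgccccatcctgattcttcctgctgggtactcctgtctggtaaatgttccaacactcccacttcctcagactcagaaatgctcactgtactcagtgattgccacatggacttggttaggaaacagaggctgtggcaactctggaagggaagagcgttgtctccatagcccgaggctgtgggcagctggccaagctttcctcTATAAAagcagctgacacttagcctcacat
S100a9: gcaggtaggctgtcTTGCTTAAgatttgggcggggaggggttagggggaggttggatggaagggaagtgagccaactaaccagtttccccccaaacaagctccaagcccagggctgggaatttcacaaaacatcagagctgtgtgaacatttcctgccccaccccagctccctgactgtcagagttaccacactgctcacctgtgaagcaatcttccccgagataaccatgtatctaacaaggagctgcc
The TATAAA of S100a8 lies 30 to 25 bases before the start and the TTGCTTAA of S100a9 lies 236 to 229 bases before it. The pair has no motif in common among the 4 searched on both strands, which also included the AP-1 motif TGANTCA and the NF-kB consensus. RefSeq gave promoters for 7 of the 9 genes, with 11 starts. None of the 7 held the NF-kB consensus, 1 held the C/EBP motif, 2 the AP-1 motif (S100a11 and S100a16) and 2 TATAAA (S100a8 and S100a3). Of 32817 mouse promoters of this length, 7.25% held the NF-kB consensus, 9.57% the C/EBP motif, 6.75% the AP-1 motif and 12.4% TATAAA. These shares are per start, whereas a gene was counted if any of its starts held the motif. The gene counts and the shares are therefore not like for like. A match is a description of these letters and not a site.

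The levels of the 9 genes were spread widely. S100a11 (ENSMUSG00000027907; 93520488 to 93526287, plus strand), a partner of annexin A1 found in the cornified envelope, averaged 2526 ± 231 FPKM (SD over the 10 libraries) and ranked 5th to 10th among all genes. S100a10 (ENSMUSG00000041959; 93555080 to 93564643, plus strand), the p11 partner of annexin A2, averaged 1510 ± 431 FPKM. S100a6 (ENSMUSG00000001025; 90612882 to 90624181, plus strand), the calcyclin gene, averaged 1357 ± 185 FPKM. The ranges of S100a11 and S100a10 overlapped, as did those of S100a10 and S100a6, though S100a11 was above S100a10 in 10 of 10 libraries and S100a10 above S100a6 in 7. S100a14 (ENSMUSG00000042306; 90526856 to 90528837, plus strand), whose product is expressed in many epithelia, followed at 674.5 ± 157 FPKM, its range apart from both neighbours. S100a16 (ENSMUSG00000074457; 90537254 to 90543151, plus strand), a broadly expressed family member with 8 annotated transcripts, averaged 108 ± 41.0 FPKM.

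The calprotectin genes stood in the lower part of this order. S100a8 averaged 41.4 ± 14.9 FPKM and S100a9 33.0 ± 12.2 FPKM, with overlapping ranges and S100a8 higher in 9 of 10 libraries. S100a7a (ENSMUSG00000063767; 90654017 to 90658669, plus strand), the mouse counterpart of the human psoriasin genes, averaged 13.4 ± 6.03 FPKM. S100a3 (ENSMUSG00000001021; 90560578 to 90602702, plus strand), known from the hair cuticle, averaged 3.65 ± 0.720 FPKM, and its gene model overlaps S100a2, Gm42674 and, on the other strand, Gm23464, so its value is uncertain. The 9 genes together held 1.41% to 1.98% of all FPKM of a library. S100a8 and S100a9 supplied 1.27% to 1.91% of that S100 total with IL-17A and 0.541% to 1.00% without it.

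**Figure D1:**
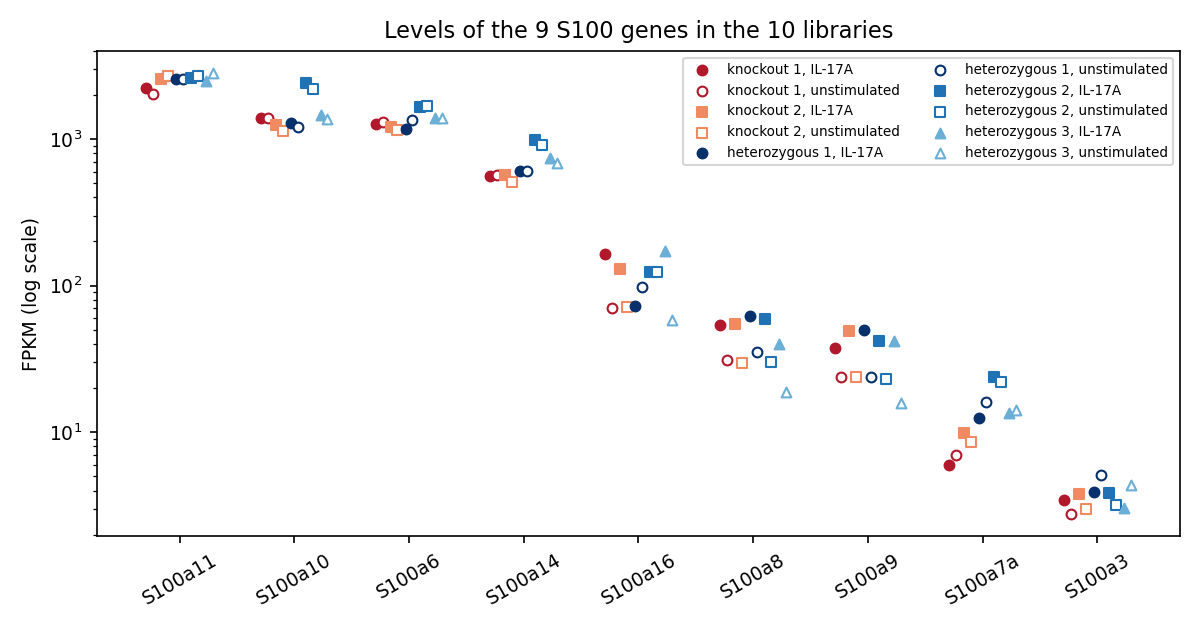
FPKM on a log scale of the 9 S100 genes in the 10 libraries, in order of mean level; each point is 1 library, filled with IL-17A and open unstimulated, and colour and shape give the culture. S100a11 lies between 2042 and 2828 FPKM and S100a3 between 2.75 and 5.12 FPKM.

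Averaged over the cultures, the RNA of both subunits of calprotectin was higher with IL-17A by a little under 2-fold on the log2(FPKM + 1) scale, where the added 1 FPKM makes the fold smaller than that of FPKM. Both were higher with IL-17A in 5 of 5 cultures, while 7 of the 9 genes did not pass the test. S100a8, whose product is the smaller calprotectin subunit, was 54.0 and 55.1 FPKM with IL-17A in knockout cultures 1 and 2 and 62.0, 58.9 and 39.7 FPKM in heterozygous cultures 1, 2 and 3. Unstimulated, S100a8 was 30.9 and 29.6 FPKM in the knockout cultures and 35.2, 30.2 and 18.7 FPKM in the heterozygous cultures. The lowest IL-17A library of S100a8 lay above the highest unstimulated one, and heterozygous culture 3 was lowest in both conditions. Averaged over the 5 cultures, with each culture its own control, S100a8 rose by a log2(FPKM + 1) difference of 0.89 (SE 0.05, 95% interval 0.77 to 1.01), which is 1.85-fold on that scale (limma, adjusted p = 0.00444 over 12054 genes). S100a9, whose product is the larger subunit, was 37.6 and 48.9 FPKM with IL-17A in the knockout cultures and 49.5, 41.7 and 41.9 FPKM in the heterozygous cultures. Unstimulated, S100a9 was 23.8 and 23.8 FPKM in the knockout cultures and 23.9, 23.2 and 15.8 FPKM in the heterozygous cultures. Again the groups did not overlap. S100a9 rose by 0.97 (SE 0.10, 95% interval 0.73 to 1.20), 1.95-fold (limma, adjusted p = 0.0314). Of all 12054 genes tested 0.149% were called, 18 higher and 0 lower. Those higher in every IL-17A library than in any unstimulated one were 0.191% and those lower 0.116%, and 3.65% were higher with IL-17A in all 5 cultures and 4.29% lower.

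The calprotectin calls depended on the libraries used, though the direction did not. S100a8 kept a positive difference of 0.82 to 0.99 in all 23 alternatives. Its call ended without either library of knockout culture 2, the culture with fibroblast transcripts (adjusted p = 0.0635 without the unstimulated and 0.0641 without the IL-17A library). With no replicate block neither gene passed (limma adjusted p = 0.730 for S100a8 and 0.0839 for S100a9). S100a9 stayed between 0.87 and 1.08, and its call ended in 15 of the 23 alternatives. Among these were the omission of the unstimulated library of knockout culture 1 (adjusted p = 0.0511), of either library of knockout culture 2 (0.177 and 0.178) and of either library of any heterozygous culture (0.0572 to 0.141). Within libraries numbered 1 to 14 (3 cultures) S100a8 differed by 0.82 (adjusted p = 0.102) and S100a9 by 0.89 (0.393). Within those numbered 33 to 38 (2 cultures) S100a8 differed by 0.99 (0.393) and S100a9 by 1.08 (0.594). In bulk RNA more cells of a type and more RNA per cell cannot be told apart. The defining markers of neutrophils were listed at 0 in all of these libraries, though a 0 in this kind of table can be a failed estimate. Which cells held the calprotectin RNA was not tested.

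**Figure D2:**
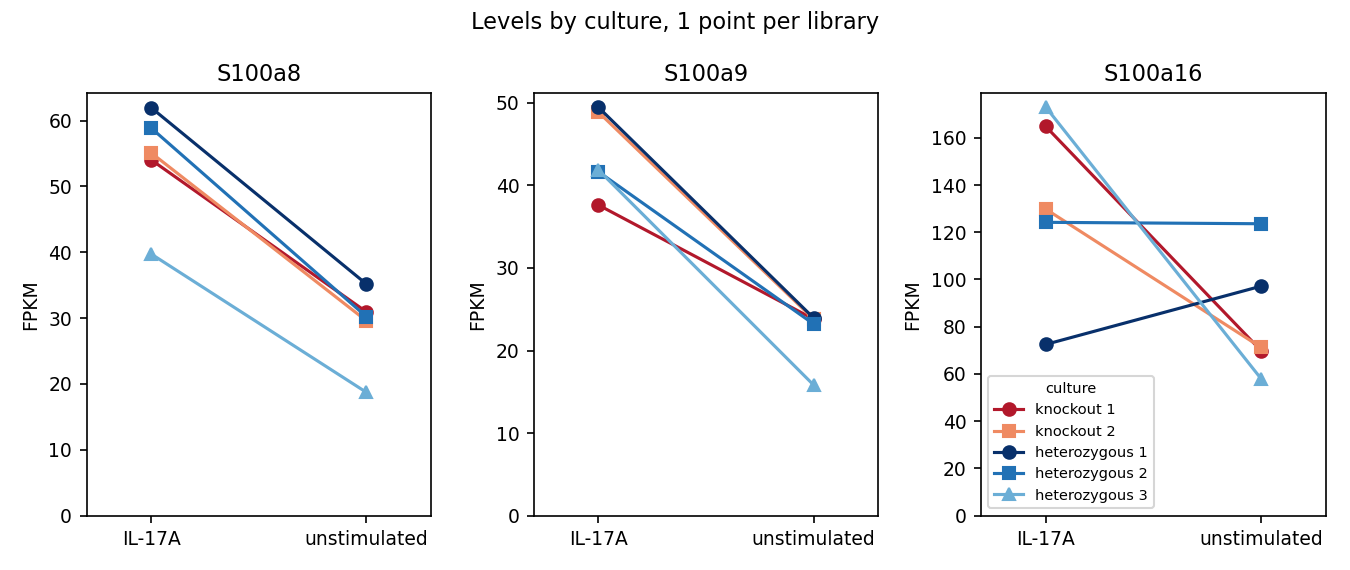
FPKM of S100a8, S100a9 and S100a16 in each library, with IL-17A at left and unstimulated at right; a line joins the libraries of 1 culture. S100a8 lies at 39.7 to 62.0 FPKM with IL-17A and 18.7 to 35.2 FPKM unstimulated, and the lines of S100a16 cross.

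The 2 subunits moved nearly in step. By culture, the log2(FPKM + 1) difference of S100a8 was 0.79 and 0.87 in knockout cultures 1 and 2, and 0.80, 0.94 and 1.05 in heterozygous cultures 1, 2 and 3. S100a9 spread more widely, at 0.64 and 1.01 in the knockout cultures and 1.02, 0.82 and 1.35 in the heterozygous cultures. Heterozygous culture 3 had the lowest unstimulated levels of both genes and the greatest differences. Summed, S100a8 and S100a9 reached 81.6 to 111 FPKM with IL-17A, against 34.5 to 59.1 FPKM unstimulated. The ratio of S100a8 to S100a9 was 0.949 to 1.44 with IL-17A and 1.18 to 1.47 unstimulated, and it was higher with IL-17A in 2 of 5 cultures. Even so calprotectin RNA remained far below the most abundant S100 RNA: S100a11 was 41.3 to 62.8 times S100a8 with IL-17A and 66.0 to 151 times S100a8 unstimulated, in FPKM.

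The difference with IL-17A varied more between cultures for S100a16 than for any other of the 9, between -0.42 and 1.56 on the log2(FPKM + 1) scale. With IL-17A it was 165 and 130 FPKM in knockout cultures 1 and 2 and 72.5, 124 and 173 FPKM in heterozygous cultures 1, 2 and 3. Unstimulated it was 69.9 and 71.3 FPKM in the knockout cultures and 97.2, 124 and 58.0 FPKM in the heterozygous cultures. So it was well above the unstimulated level in 3 cultures, level in heterozygous culture 2, and below it in the culture labelled heterozygous 1. The averaged difference of 0.65 (SE 0.29, 95% interval -0.05 to 1.34) did not pass (limma, adjusted p = 0.834). The split followed neither genotype nor library number set.

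The other 6 genes gave averaged differences between -0.06 and 0.09. S100a10 was highest among them at 0.09 (SE 0.03, 95% interval 0.005 to 0.17, limma adjusted p = 0.802). It was higher with IL-17A in 4 of 5 cultures. In this comparison 3 of the 9 genes, S100a8, S100a9 and S100a10, had an unadjusted limma p under 0.05, as did 6.03% of all genes. S100a14 was at 0.07 (95% interval -0.02 to 0.16). S100a6 was at -0.04 (-0.14 to 0.07) and S100a11 at -0.03 (-0.15 to 0.08). S100a7a, often named beside calprotectin in psoriasis, was at -0.06 (-0.25 to 0.14) and went up in 2 cultures and down in 3. S100a3 was at -0.0023 (-0.30 to 0.30). The intervals of these 6 genes lie below the interval of S100a8, which begins at 0.77. The median over the 9 genes was 0.07, against -0.01 over all genes tested.

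**Figure D3:**
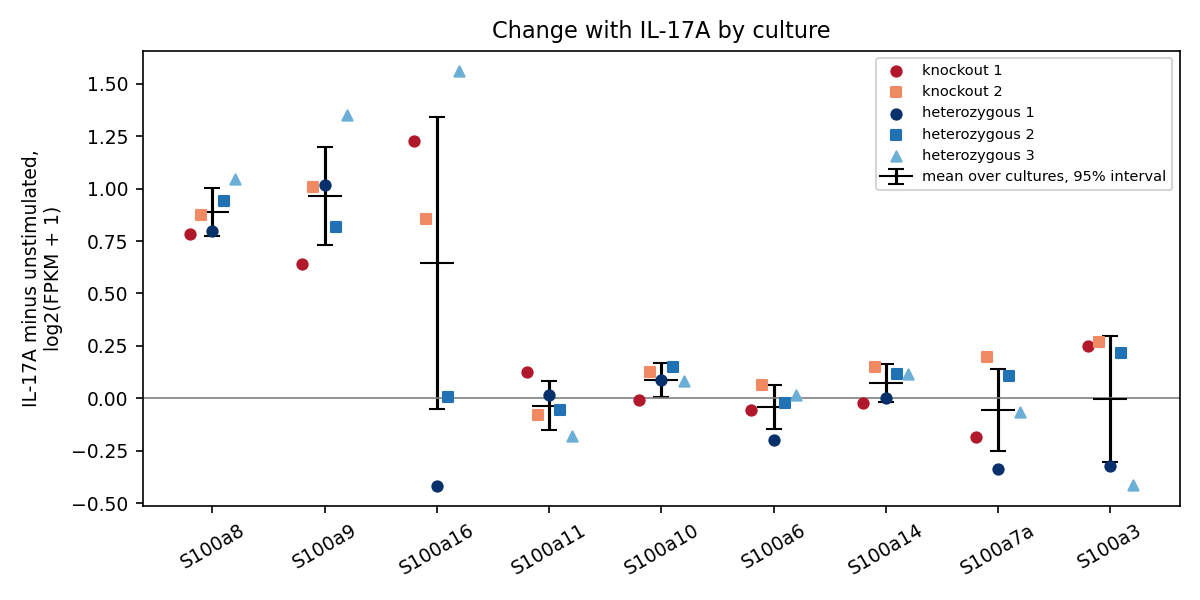
Difference in log2(FPKM + 1), IL-17A minus unstimulated, for each S100 gene; points are the 5 cultures, and bars show the mean over cultures with its 95% interval from the fit. S100a8 lies between 0.79 and 1.05 in the 5 cultures, S100a16 between -0.42 and 1.56.

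Whether BCL10 is needed for the response of these genes to IL-17A was asked by the comparison of the 2 genotypes. Calprotectin genes were higher with IL-17A in cultures of both genotypes. In the libraries labelled knockout S100a8 averaged 54.6 ± 0.747 FPKM with IL-17A and 30.3 ± 0.955 unstimulated, and S100a9 averaged 43.2 ± 7.96 FPKM with IL-17A and was 23.8 FPKM in both unstimulated libraries (SD, n = 2). In the libraries labelled heterozygous S100a8 averaged 53.5 ± 12.03 FPKM with IL-17A and 28.0 ± 8.44 unstimulated, and S100a9 averaged 44.3 ± 4.44 and 20.98 ± 4.50 FPKM (SD, n = 3). In the fit with 4 group means, which leaves differences between cultures in the spread, 0 of the 9 genes passed in the knockout libraries, where 0.0249% of all genes did, 0.00830% higher and 0.0166% lower. S100a8 was at log2 0.83 (SE 0.29), S100a9 at 0.82 (SE 0.21) and S100a16 at 1.04 (SE 0.42), each with a limma adjusted p of 1. These 3 had an unadjusted p under 0.05, as did 1.46% of all genes. In the heterozygous libraries 0 of 9 passed, where 0.00830% of all genes did. There S100a8 was at 0.93 (SE 0.23, adjusted p = 1), S100a9 at 1.06 (SE 0.17, adjusted p = 0.298) and S100a16 at 0.38 (SE 0.34, adjusted p = 1). S100a8 and S100a9 had an unadjusted p under 0.05, as did 1.34% of all genes. With culture as a random effect (replicate block), S100a8 (limma adjusted p = 0.018) and S100a9 (0.00891) passed in the heterozygous libraries. With culture as a fixed block neither passed there (limma adjusted p = 0.0545 for S100a8 and 0.133 for S100a9). In the knockout libraries neither passed with the random effect (0.113 and 0.121) or with the fixed block (0.120 and 0.480).

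In the fit with 4 group means, the difference between the genotypes' responses was smaller than its standard error for both calprotectin genes. Knockout minus heterozygous, it was -0.10 for S100a8 (95% interval -0.94 to 0.74) and -0.24 for S100a9 (-0.84 to 0.36), and 0.66 for S100a16 (-0.56 to 1.88). None of the 9 passed (limma, adjusted p = 0.9997 for each), nor did any of 12054 genes. An unadjusted p under 0.05 was found for 0 of the 9 and for 1.19% of all genes. With culture as a fixed block (replicate block), differences between cultures are taken out of the spread. The intervals were then narrower for S100a8 (-0.34 to 0.14) and S100a9 (-0.71 to 0.24), and wider for S100a16 (-0.79 to 2.10). None passed there (limma adjusted p = 0.801, 0.785 and 0.789). A missed threshold does not show that the genotypes respond alike. Without the culture labelled heterozygous 1, in the fit with 4 group means, the difference was -0.16 for S100a8, -0.26 for S100a9 and 0.26 for S100a16. The sign for S100a8 turned to 0.018 without the IL-17A library of the culture labelled heterozygous 1, to 0.16 when the unstimulated library of heterozygous culture 3 was left out, and to 0.030 within library numbers 1 to 14.

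Between the genotypes themselves, S100a7a and S100a14 were lower in every library labelled knockout than in any labelled heterozygous, as were 2.21% of all genes, while 3.09% were higher in this way. None of the 9 S100 genes passed the test. S100a7a was 6.01 and 9.93 FPKM with IL-17A in knockout cultures 1 and 2, against 12.5, 23.9 and 13.5 FPKM in heterozygous cultures 1, 2 and 3. Unstimulated it was 6.97 and 8.52 FPKM in the knockout cultures, against 16.03, 22.1 and 14.1 FPKM in the heterozygous cultures. The difference was -0.95 with IL-17A (SE 0.30, 95% interval -1.64 to -0.27, limma adjusted p = 0.507). Unstimulated it was -1.06 (SE 0.30, -1.75 to -0.37, limma adjusted p = 0.728). Within library numbers 1 to 14 the only heterozygous culture is the one labelled heterozygous 1, with Bcl10 close to that of most knockout libraries. There S100a7a differed by -0.62 with IL-17A and -0.97 unstimulated. Without that culture the values were -1.12 (limma adjusted p = 0.0727) and -1.10 (0.1303). In that setting genotype cannot be told apart from the library number set, here or for the genes below.

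S100a14 was 562.5 and 569 FPKM with IL-17A in the knockout cultures, against 605, 981 and 746 FPKM in heterozygous cultures 1, 2 and 3. Unstimulated it was 571 and 513 FPKM in the knockout cultures, against 605, 904 and 689 FPKM in the heterozygous cultures. The culture labelled heterozygous 1 lay just above the knockout libraries, and the 2 others well above. The difference was -0.43 with IL-17A (SE 0.22, limma adjusted p = 0.507) and -0.42 unstimulated (SE 0.22, adjusted p = 0.728). It was -0.10 and -0.16 within library numbers 1 to 14, and -0.60 (adjusted p = 0.0707) and -0.54 (0.140) without the culture labelled heterozygous 1. S100a14 and S100a6 were also the members whose library number sets did not overlap. The libraries numbered 33 to 38 held 1382 to 1683 FPKM of S100a6 and those numbered 1 to 14 held 1154 to 1346, and 18.4% of all genes lay higher and 17.4% lower in every library of the set 33 to 38. Melanocyte markers followed the same sets, with the sums given above, and their part in these levels was not tested.

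**Figure D4:**
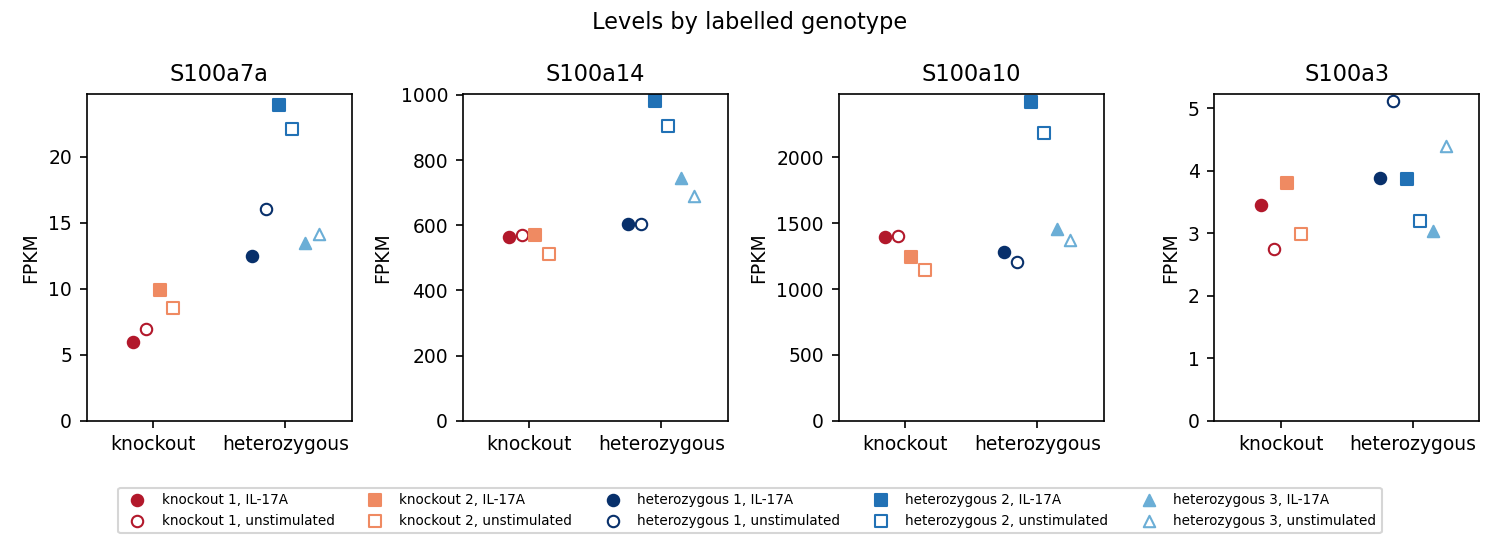
FPKM of S100a7a, S100a14, S100a10 and S100a3 by labelled genotype, knockout at left and heterozygous at right; each point is 1 library, filled with IL-17A and open unstimulated, and colour and shape give the culture. S100a7a lies at 6.01 to 9.93 FPKM in knockout libraries and 12.5 to 23.9 FPKM in heterozygous ones, and S100a10 is highest in heterozygous culture 2.

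S100a10 was 1393 and 1247 FPKM with IL-17A in the knockout cultures and 1281, 2419 and 1454 FPKM in the heterozygous cultures, with heterozygous culture 2 far above the rest. Its difference was -0.33 with IL-17A (limma adjusted p = 0.591) and -0.28 unstimulated (adjusted p = 0.755). These turned to 0.040 and 0.070 within library numbers 1 to 14, and were -0.51 (adjusted p = 0.245) and -0.45 (0.344) without the culture labelled heterozygous 1. S100a3 was 2.75 and 2.99 FPKM unstimulated in the knockout cultures, against 5.12, 3.20 and 4.39 FPKM in the heterozygous cultures, a difference of -0.42 (SE 0.16, limma adjusted p = 0.728). Without the culture labelled heterozygous 1 it was -0.30 (adjusted p = 0.261). With IL-17A the S100a3 difference was 0.01, and 0.06 without that culture. Of the calprotectin genes, S100a8 differed by 0.05 with IL-17A (95% interval -0.54 to 0.65) and 0.15 unstimulated (-0.44 to 0.74). S100a9 differed by -0.04 with IL-17A (-0.47 to 0.38) and 0.20 unstimulated (-0.23 to 0.62). Without the culture labelled heterozygous 1, S100a8 differed by 0.17 with IL-17A and 0.33 unstimulated, and S100a9 by 0.04 and 0.30. Of the 9 genes, 0 passed in either genotype comparison by limma. With IL-17A 0.0249% of all genes passed, 3 lower and 0 higher, and 8.14% had an unadjusted p under 0.05, S100a7a among them. Unstimulated 0 genes passed and 4.66% had an unadjusted p under 0.05, as did S100a7a and S100a3.

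The other genes of the pathway were taken from lists. Of 10 genes of the IL-17 receptor and its regulators 2 rose with IL-17A in the averaged comparison and 0 fell. Zc3h12a, which encodes the ribonuclease Regnase-1, was 20.9 to 28.0 FPKM with IL-17A and 6.06 to 13.1 FPKM unstimulated, and rose by log2 1.33 (SE 0.11, limma adjusted p = 0.0134). Nfkbiz, which encodes IkappaB-zeta, was 40.7 to 55.0 FPKM with IL-17A and 23.2 to 30.3 FPKM unstimulated, and rose by 0.89 (SE 0.09, limma adjusted p = 0.0289). Without the unstimulated library of knockout culture 2 the calls ended for Zc3h12a (limma adjusted p = 0.099) and for Nfkbiz (0.152), as they did in 14 and 16 of the 23 alternatives. The C/EBP delta gene Cebpd, at 25.8 to 32.3 FPKM with IL-17A and 15.9 to 20.97 FPKM unstimulated, missed the threshold (0.64, adjusted p = 0.0619). The receptor chain genes Il17ra (-0.04) and Il17rc (-0.04) did not pass.

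Of 6 other antimicrobial genes 2 were high enough to test and 0 passed. The protease inhibitor gene Slpi was at 0.33 (SE 0.04, higher in 5 of 5 cultures, limma adjusted p = 0.0554) and the beta-defensin gene Defb14 at 0.38 (SE 0.11, 4 of 5 cultures, adjusted p = 0.614). Lcn2, the lipocalin 2 gene, was under the filter at 0 to 0.705 FPKM. None of 8 binding partners of S100 proteins passed. Anxa1, the annexin A1 gene, was nearest at 0.17 (limma adjusted p = 0.558), then Anxa6 at 0.09 (0.932). None of 4 tested receptor genes of 8 passed. Tlr4, which encodes a calprotectin receptor, was 0.199 to 0.466 FPKM, and Ager, which encodes the receptor RAGE, was at most 0.128 FPKM, both under the filter. Of those tested, Bsg, which encodes basigin, was 214 to 250 FPKM and differed by 0.012, and Nptn, which encodes neuroplastin, was 7.87 to 14.3 FPKM and differed by 0.044 (limma adjusted p = 0.985 and 0.987). Of the other S100 genes 3 were tested and 0 passed. S100a13 was nearest at -0.15 (limma adjusted p = 0.781) and S100a1 was at -0.12 (0.932). Of 6 fused-type S100 genes in the table, which encode large proteins such as trichohyalin and hornerin, 2 were tested and 0 passed: Rptn, which encodes repetin, at -0.03 and the trichohyalin gene Tchh at -0.0091 (limma adjusted p = 0.982 and 0.990). In the 5 other comparisons 0 genes of these lists passed.

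By likeness of pattern the calprotectin genes were each other's nearest gene. Across the 10 libraries, which share cultures and the IL-17A contrast, log2(FPKM + 1) of S100a8 correlated with S100a9 at Pearson r = 0.944, the highest of 12053 genes for either. Next for S100a8 came Il1f9 (0.922), which encodes IL-36 gamma, the keratin gene Krt23 (0.908), the cornified envelope precursor gene Sprr2g (0.886) and Prr9 (0.844). For S100a9 they were Sprr2g (0.939), Sprr2e (0.888), Gm25894 (0.888) and Il1f9 (0.883). Sprr2g was 21.2 to 56.1 FPKM and Il1f9 5.08 to 8.82 FPKM. The Sprr2 genes are near-identical copies, so their values are uncertain. S100a16 followed far behind, at 0.537 with S100a8 and 0.576 with S100a9, and the other 6 members lay between -0.26 and 0.13. These correlations are descriptions with no test.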

How the data were processed

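Poly(A) RNA was selected from 100 ng of total RNA, per the labels' protocols. Gene levels were deposited by the authors as FPKM, in 1 table of 37991 genes. HISAT2, SAMtools, StringTie and DESeq2 and the build mm10 are named in the submitters' processing notes; versions, roles, annotation and strand setting were not given in the sources used here. A total of 32919 identifiers matched a symbol and a GRCm38 position. FPKM is no count, so no count model was run. The 12054 genes whose mean reached 1 FPKM were tested as log2(FPKM + 1) with limma 3.58.1 (R 4.3.3, mean-variance trend, two-sided, Benjamini-Hochberg over all tested genes, threshold 0.05). The pseudocount understates changes of low genes. The averaged IL-17A fit has culture as a fixed block; the other 5 comparisons share 1 fit with 4 group means. Pairing by replicate number was taken from the labels. Deviations from the group means correlated between same-numbered libraries of a genotype (0.227 for knockout, 0.607, 0.488 and 0.137 for heterozygous cultures), but not across genotypes (-0.155 to 0.0476). The knockout correlation is a single value, since 2 libraries mirror each other around their mean. The culture labelled heterozygous 1 also differs from the other heterozygous cultures in library number set. These correlations therefore cannot show whether the numbers pair libraries by culture. The fits were tested on simulated data with independent spread in each library and no culture effect, so that test does not bear on the culture block. Depth was estimated from genes with 1 exon and 300 to 3000 bp, where 48.6% to 55.3% of low values (1 to 3 steps) came within 0.05 of whole fragments, against 10% if evenly spread. Named genes were all 9 members, the 5 nearest by Pearson r to S100a8 and S100a9, and of each context list (receptor and regulators, antimicrobial genes, binding partners, S100 receptors, other S100 and fused-type S100 genes) the genes that passed or else the 2 with the smallest p. Cebpd, Il17ra, Il17rc, Lcn2, Tlr4, Ager, S100a4, S100a5, S100g, Ivl, Krt1, Krt10 and Lor were named beyond this rule, after their values were seen. So were Krt5, Cd14, Gapdh and Gm23935, given as checks of the libraries. Bcl10 was in the rule as the label check. The members and lists were chosen with earlier results of these data known. S100a2 and S100a7l2 were not analysed here.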

Additional observations from a re-analysis of the deposited data

How the results depend on the processing

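Over 23 alternatives to the averaged IL-17A comparison, S100a8 and S100a9 stayed higher with IL-17A in each, and the count of members called, 2 as reported, changed as follows. It was 1 with no filter on low values (20917 genes tested, S100a8 only) and 1 without both libraries of the culture labelled heterozygous 1. It was 0 with no replicate block (adjusted p = 0.730 for S100a8 and 0.0839 for S100a9), and 0 in 3 alternatives added after seeing the data: without both libraries of knockout culture 2, within library numbers 1 to 14 and within 33 to 38. Leaving out 1 library at a time gave 0 to 2; the partner of the library left out then carries no weight, so fewer cultures are compared. TPM scaling, median-of-ratios scaling, a pseudocount of 0.1, a minimum mean of 5 FPKM, a fit without trend, the omission of knockout culture 1 and culture as a random effect gave 2. The whole count of genes called was 6 with no filter, against 18. In the heterozygous libraries culture as a random effect (replicate block) called 2 members, against 0, and 15 genes in all (14 higher, 1 lower), against 1; culture as a fixed block called 0 members. The other 4 comparisons called 0 members under every alternative run, the replicate blocks included. Signs turned for S100a16 in the heterozygous comparison within library numbers 1 to 14 (-0.42), for the difference in response of S100a8 (0.018, 0.16 and 0.030, named above; -0.30 to 0.16 over the single omissions) and for S100a10 between genotypes: 0.079 unstimulated and 0.031 with IL-17A with the number set as a covariate, and 0.070 and 0.040 within library numbers 1 to 14. The cause was not tested. S100a7a stayed between -1.19 and -0.85 unstimulated and between -1.27 and -0.62 with IL-17A, and S100a14 between -0.54 and -0.12 and between -0.60 and -0.10.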

Other observations

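S100a4, a family member outside the 9 genes that is known from fibroblasts and other mesenchymal cells, was 9.23 FPKM with IL-17A and 7.53 FPKM unstimulated in knockout culture 2, against 1.37 to 3.27 FPKM in the other 8 libraries; it is named here after its values were seen. The fibroblast markers of that culture stood at 18.7 and 18.8 FPKM in sum, against 0.0772 to 0.454 FPKM elsewhere, and their part in the S100a4 level was not tested. Anxa1, which encodes the annexin that S100A11 binds, was 2075 to 2882 FPKM in libraries numbered 33 to 38 and 1228 to 1413 FPKM in those numbered 1 to 14. This is no trait of Anxa1 alone, as 18.4% of all genes lay higher and 17.4% lower in every library of the set 33 to 38. S100a5 and S100g were listed at 0 in all 10 libraries. The involucrin gene Ivl, a marker of differentiating keratinocytes, was lower with IL-17A in 5 of 5 cultures by 0.09 to 0.33 on the log2(FPKM + 1) scale, without passing the test (limma adjusted p = 0.602). Of all genes tested, 4.29% were lower in all 5 cultures. The other suprabasal markers did not follow Ivl: Krt10 was higher in 4 of 5 cultures, and Krt1 and Lor were each higher in 2 and lower in 3.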
